A study of Mus musculus with 12 samples.

Results

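The 6 T-box genes described here, Tbx1, Tbx2, Tbx3, Tbx5, Tbx18 and Tbx20, are those that build and pattern the mouse heart, taken by symbol from the 43629 gene identifiers counted. The study asked how fibroblasts are turned into cardiomyocyte-like cells by forced transcription factors, with and without a kinase, and all samples came from mice of strain C57BL/6. The AGHMT-labelled group was mouse embryonic fibroblasts given Akt, Gata4, Hand2, Mef2c and Tbx5, and the GHMT group was given Gata4, Hand2, Mef2c and Tbx5. Both were kept for 3 weeks and then sorted on green fluorescent protein under the alpha myosin heavy chain (Myh6) promoter. The CM group was ventricular cardiomyocytes isolated from adult mice, and the E group was mouse embryonic fibroblasts kept for 3 weeks with an empty vector and not described as sorted. RNA sequencing libraries numbered 3 in each of the 4 groups, 12 in all. Because Tbx5 was itself forced in both sorted groups, its reads cannot be divided into those of the vector and those of the chromosomal gene. Whatever separates the sorted groups from E, the factors and the sort on a cardiomyocyte reporter cannot be told apart, and in bulk RNA fewer cells of a type and less RNA per cell cannot be told apart either. No label says that the libraries of a group came from separate cultures or animals, so p-values measure the spread between these libraries, which may be technical.

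The Akt1 counts do not bear out the label of the AGHMT group, which is therefore called AGHMT-labelled throughout. Akt1 stood at 7.30, 12 and 19.6 CPM (a gene's reads relative to the scaled size of its library) in AGHMT-labelled libraries 1 to 3, at 1.31, 13.5 and 13.7 CPM in GHMT, at 23.8, 18.1 and 104 CPM in CM and at 104, 64.1 and 21 CPM in E. The treatment note names Akt (and spells the mix AGMT), the series title names Akt1, and Akt1 was not called between AGHMT-labelled and GHMT (log2 fold change 0.34, adjusted p = 0.786, edgeR's quasi-likelihood test). The sources used here do not say which species or form of Akt was supplied, and reads of one not counted under mouse Akt1 would not appear in these values. Gene reads per library numbered 14386407 to 18493989 in AGHMT-labelled, 1872558 to 2200815 in GHMT, 5120230 to 15952646 in CM and 15971154 to 33552138 in E, so that GHMT carries the least precise values. Mitochondrially encoded genes took 36.6% to 42.7% of the reads in AGHMT-labelled, 27.8% to 72.2% in GHMT, 40.0% to 59.9% in CM and 3.65% to 7.36% in E. GHMT 1, CM 3 and E 1 stood apart from their groups in depth, correlation or scaling, and results were recomputed without them. The labelled identities were looked at on 8 cardiomyocyte markers, among them Myh6, whose promoter drove the sorting reporter. Their summed level was 2795 to 3524 CPM in AGHMT-labelled, 783 to 1342 CPM in GHMT, 25773 to 57220 CPM in CM and 12.1 to 19.5 CPM in E. That of 8 fibroblast markers was 6723 to 7822 CPM in AGHMT-labelled, 3205 to 4970 CPM in GHMT, 614 to 665 CPM in CM and 14691 to 15554 CPM in E.

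T-box proteins bind a short DNA element through a shared domain named after the Brachyury protein, and activators and repressors of the family compete for the same sites. In the embryonic heart Tbx5 and Tbx20 act with Nkx2-5 and Gata4 in working chamber muscle, Tbx2 and Tbx3 hold the chamber programme down in the atrioventricular canal and the conduction system, Tbx18 marks the sinus horns and the epicardium, and Tbx1 keeps progenitors of the second heart field dividing. Tbx5 is one of the factors used to reprogram fibroblasts. Tbx20 and Tbx18 were not supplied.

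The start regions of Tbx20 and Tbx18 are shown because, among the 6 genes, these were the ones without a vector that stood highest in the sorted cells. The table of RefSeq start regions used here (250 bases before the start site and 50 after it, GRCm38.p6) gave sequence for 3 of the 6 genes. Each sequence runs 5′ to 3′ on the gene's own strand, and capitals mark an E-box (CANNTG, the element bound by Hand2 and other basic helix-loop-helix proteins).
Tbx20, chr9:24774254-24774553, minus strand: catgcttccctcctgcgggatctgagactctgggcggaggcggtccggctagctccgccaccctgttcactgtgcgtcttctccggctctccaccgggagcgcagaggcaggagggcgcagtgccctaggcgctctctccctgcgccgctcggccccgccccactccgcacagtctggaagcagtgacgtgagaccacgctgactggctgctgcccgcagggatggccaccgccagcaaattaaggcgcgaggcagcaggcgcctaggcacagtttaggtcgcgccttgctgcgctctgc
Tbx18, chr9:87731211-87731510, minus strand: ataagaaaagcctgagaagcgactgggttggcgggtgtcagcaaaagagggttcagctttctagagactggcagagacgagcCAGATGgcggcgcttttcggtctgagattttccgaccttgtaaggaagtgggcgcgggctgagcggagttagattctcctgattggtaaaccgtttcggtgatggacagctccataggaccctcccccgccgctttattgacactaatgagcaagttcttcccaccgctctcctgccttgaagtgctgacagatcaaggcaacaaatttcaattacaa
Searched on both strands were the T-box half-site AGGTGTGA, its core GGTGTG (contained in the half-site), the GATA element AGATAA, the E-box CANNTG and the MEF2 site. None of the 5 was found in the Tbx20 window, whose bases were 68.3% G or C, and the Tbx18 window (51.7% G or C) held 1 E-box, at bases -168 to -163 from the start site. Of 32851 start regions in the table, 1.28% held the half-site, 19.0% the core, 11.2% the GATA element, 72.3% an E-box and 0.557% the MEF2 site. A match of letters is not a bound site, and its absence from these 300 bases says nothing about the factors.

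Tbx20, an activator and repressor of chamber muscle that adult cardiomyocytes keep expressing, was the most abundant T-box gene of the sorted cells and all but silent in E. The gene (ENSMUSG00000031965) lies on the minus strand of chromosome 9 from 24718138 to 24774303 (GRCm38). Tbx20 stood at 1104, 783 and 994 CPM in AGHMT-labelled, at 1446, 1480 and 979 CPM in GHMT, at 152, 182 and 79.7 CPM in CM and at 0.736, 0.778 and 1.07 CPM in E. The lowest sorted library was thus over every CM library and the lowest CM library over every E library, while AGHMT-labelled and GHMT overlapped. Against E it was 1112-fold higher in AGHMT-labelled (log2 fold change 10.12 ± 0.47 SE, adjusted p = 4.28e-09) and 1507-fold higher in GHMT (10.56 ± 0.48 SE, adjusted p = 3.13e-09, edgeR's quasi-likelihood test over all genes, as for every adjusted p below). The sorted cells also exceeded the cardiomyocytes, by 6.95-fold in AGHMT-labelled (adjusted p = 2.68e-05) and by 9.43-fold in GHMT (adjusted p = 3.59e-06). CM exceeded E by 160-fold (adjusted p = 8.10e-09).

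Tbx5, an activator of heart and forelimb development that was forced in both sorted groups, followed the same order of groups at a lower level. It (ENSMUSG00000018263) lies on the plus strand of chromosome 5 from 119832668 to 119885219. Tbx5 stood at 63.8, 105 and 109 CPM in AGHMT-labelled, at 151, 133 and 177 CPM in GHMT, at 19.7, 16.9 and 20.8 CPM in CM and at 4.53, 4.63 and 3.06 CPM in E. No 2 groups overlapped. Against E, Tbx5 rose 22.7-fold in AGHMT-labelled (log2 fold change 4.50 ± 0.35 SE, adjusted p = 2.89e-07) and 37.6-fold in GHMT (5.23 ± 0.37 SE, adjusted p = 1.09e-07). The sorted cells held more Tbx5 RNA than adult cardiomyocytes, 4.84-fold more in AGHMT-labelled (adjusted p = 9.01e-05) and 8.03-fold more in GHMT (adjusted p = 4.84e-06). With all libraries thinned to the depth of the shallowest, the first of these differences was no longer called (log2 fold change 1.88, adjusted p = 0.0698). CM exceeded E 4.68-fold (adjusted p = 5.98e-05).

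Tbx18, the repressor of the sinus horns and the epicardium, was higher in the sorted cells than in E and CM and, unlike Tbx20 and Tbx5, lower in CM than in E. It (ENSMUSG00000032419) lies on the minus strand of chromosome 9 from 87702800 to 87731260. Tbx18 stood at 246, 174 and 235 CPM in AGHMT-labelled, at 376, 350 and 323 CPM in GHMT, at 4.01, 7.35 and 2.75 CPM in CM and at 18.1, 21.1 and 27.7 CPM in E. Every sorted library was over every E library, and every E library over every CM library. Against E, Tbx18 rose 9.79-fold in AGHMT-labelled (log2 fold change 3.29 ± 0.35 SE, adjusted p = 7.70e-06) and 15.7-fold in GHMT (3.97 ± 0.37 SE, adjusted p = 1.73e-06). Against CM it was 45.8-fold higher in AGHMT-labelled (adjusted p = 2.56e-07) and 73.3-fold higher in GHMT (adjusted p = 6.60e-08), and CM fell below E by 2.23 on the log2 scale (adjusted p = 1.31e-04). Tbx18 and a gene on the opposite strand, D030062O11Rik, share 970 exon bases, and reads in those bases cannot be told apart, since no source used here says whether counting used the strand. D030062O11Rik itself received 70 reads over all 12 libraries.

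**Figure D1:**
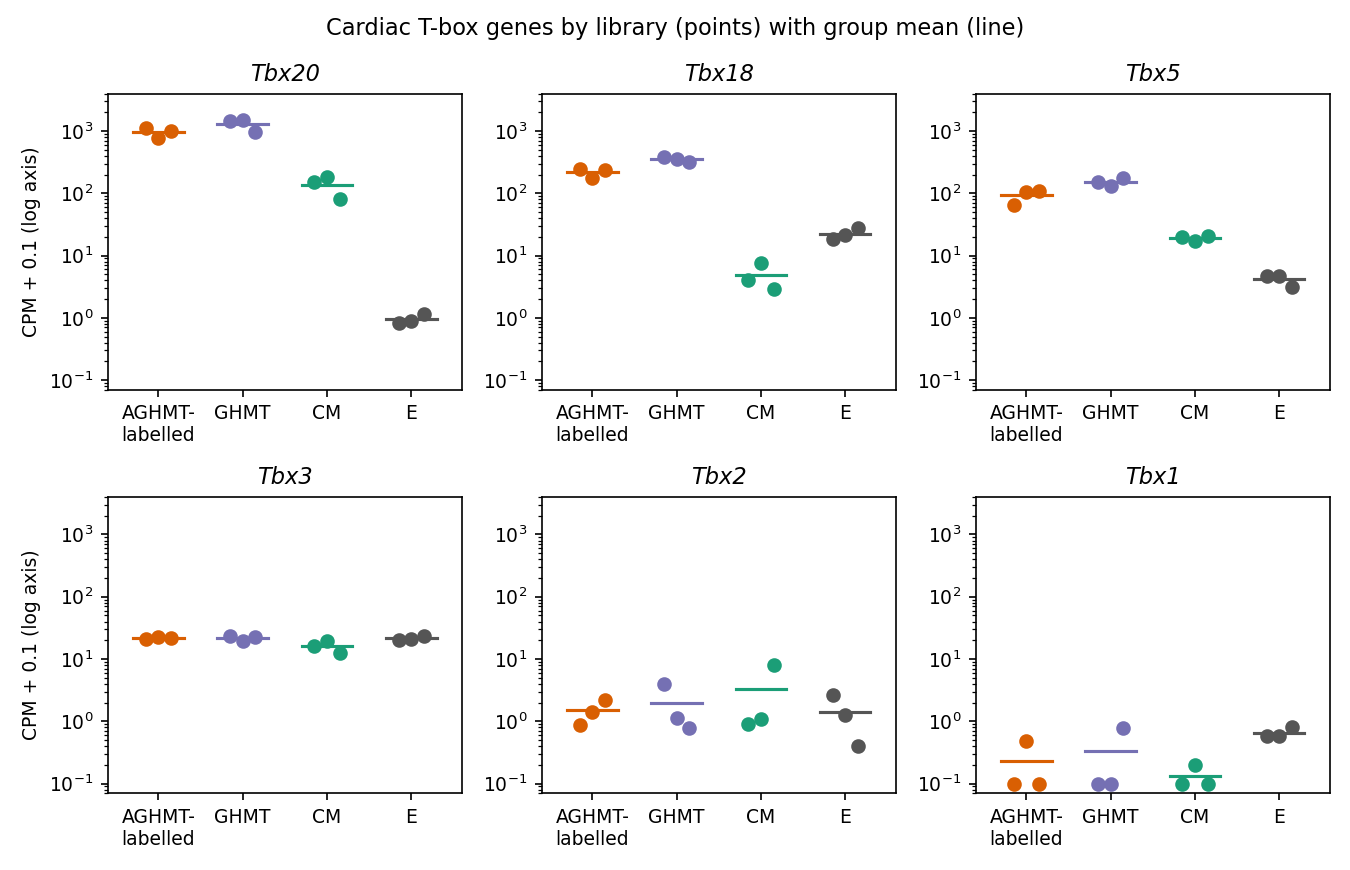
The 6 T-box genes in each library, in CPM plus 0.1 on a log axis, with AGHMT-labelled, GHMT, CM and E from left to right, points for libraries and lines for group means. Tbx20, Tbx18 and Tbx5 sit highest in the 2 sorted groups, Tbx3 lies between 12.5 and 23.6 CPM in every library, and Tbx1 lies below 1 CPM throughout.

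Tbx3, the repressor that keeps the sinus node and the conduction system from becoming working muscle, was expressed at nearly one level in all 4 groups. It (ENSMUSG00000018604) lies on the plus strand of chromosome 5 from 119670669 to 119684724, beside Tbx5. Tbx3 stood at 21.1, 22.3 and 21.3 CPM in AGHMT-labelled, at 23.6, 19.3 and 22.7 CPM in GHMT, at 16.0, 19.4 and 12.5 CPM in CM and at 20.3, 20.9 and 23.4 CPM in E. The highest CM library, at 19.4 CPM, overlapped GHMT and lay below all AGHMT-labelled and all E libraries. No comparison called Tbx3: its log2 fold change was 0.01 in AGHMT-labelled against E (95% interval -0.75 to 0.76), 0.02 in GHMT against E (-0.78 to 0.81) and -0.43 in CM against E (-1.19 to 0.34). These intervals leave room for changes of up to about 1 on the log2 scale. Tbx3 also depends on how libraries are scaled. With total counts it was lower in GHMT than in E (log2 fold change -1.42, adjusted p = 0.0134), and after a correction for gene GC content it was higher (2.66, adjusted p = 0.00157). DESeq2 called it lower in AGHMT-labelled than in E (-0.33, adjusted p = 0.0338). The adjoining antisense gene Tbx3os1 shares 115 exon bases with Tbx3 and received 18 reads in all.

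Tbx2, the repressor of the atrioventricular canal, was near the limit of detection. It (ENSMUSG00000000093) lies on the plus strand of chromosome 11 from 85832551 to 85841948. Tbx2 stood at 0.769, 1.32 and 2.13 CPM in AGHMT-labelled, at 3.93, 1.04 and 0.687 CPM in GHMT, at 0.817, 1.01 and 7.90 CPM in CM and at 2.53, 1.15 and 0.306 CPM in E. All groups overlapped, the GHMT values rest on 6 reads in all, and the highest CM and GHMT values belong to CM 3 and GHMT 1, which stood apart. With the TMM scale no comparison called it, with adjusted p between 0.304 and 0.951. The 95% log2 interval of GHMT against E ran from -2.20 to 2.72 and leaves room for differences within that range. After GC correction Tbx2 was called higher in AGHMT-labelled (2.67, adjusted p = 0.00277) and in GHMT (3.73, adjusted p = 0.00690) than in E, and also higher than in CM (1.92, adjusted p = 0.0203, and 2.98, adjusted p = 0.0185).

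Tbx1, which acts in the second heart field and the pharynx and not in working muscle, was the rarest member. It (ENSMUSG00000009097) lies on the minus strand of chromosome 16 from 18580979 to 18590671. Tbx1 stood at 0, 0.385 and 0 CPM in AGHMT-labelled (7 reads), at 0, 0 and 0.687 CPM in GHMT (1 read), at 0, 0.101 and 0 CPM in CM (1 read) and at 0.485, 0.473 and 0.703 CPM in E (66 reads). All AGHMT-labelled and CM libraries lay below all E libraries. The call of Tbx1 as lower in CM than in E (adjusted p = 0.0294) rests on 1 read against 66, a ratio of 0.0633 with a counting interval of 0.00158 to 0.365. Because Tbx1 passed the filter through E alone, it could be tested only because it was high there. The call was lost in 7 of 23 alternative settings, with adjusted p of 0.00626 to 0.188, among them the omission of GHMT 1, CM 3 and E 1 (0.0745). The AGHMT-labelled ratio to E was 0.261 with an interval of 0.101 to 0.569, not called over all genes (adjusted p = 0.0919). Where 1 read is worth 0.687 CPM, as in GHMT 3, a level like that of E could not have been told from absence.

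All 6 genes passed the filter on low counts, Tbx1 through its E libraries alone. Of the 6, Tbx5, Tbx18 and Tbx20 were called higher in AGHMT-labelled than in E and none lower, beside 46.5% of the 15059 genes tested called in that comparison (21.9% higher). The same 3 were called higher in GHMT than in E and none lower, beside 52.6% of all genes called (19.8% higher). The median log2 fold change of the 6 was 1.69 in AGHMT-labelled against E and 2.12 in GHMT against E, beside -0.16 and -1.06 over all genes tested. In GHMT, a gene with a log2 fold change of 0 against E, such as Tbx3, stood 1.06 above the median gene, and the median gene was at -2.38 when total counts were used and at 0.01 after GC correction. The 3 calls against E held in all 25 alternative settings run for both sorted groups, with log2 fold changes of 9.13 to 10.73 for Tbx20, 3.81 to 7.44 for Tbx5 and 2.54 to 4.82 for Tbx18 in GHMT.

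**Figure D2:**
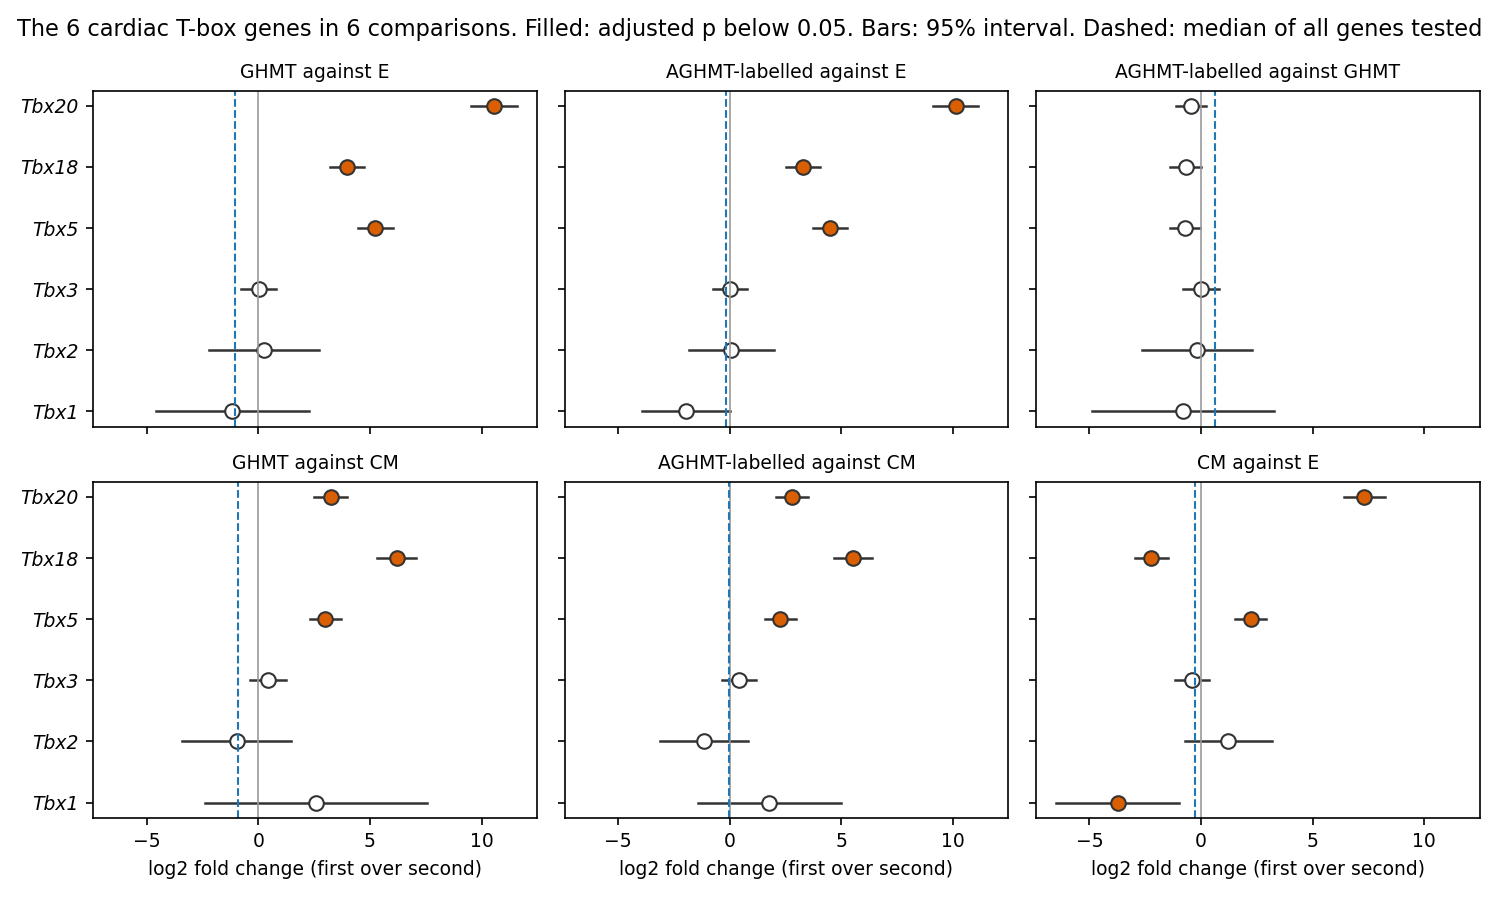
The log2 fold change of each T-box gene (rows) in 6 comparisons (panels), first-named group over the second, with 95% intervals as bars, filled points where the adjusted p was below 0.05 and a dashed line at the median of all genes tested. Tbx20, Tbx18 and Tbx5 lie to the right against both E and CM, none is filled in AGHMT-labelled against GHMT, and Tbx18 changes side in CM against E.

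Between AGHMT-labelled and GHMT, none of the 6 was called by edgeR's quasi-likelihood test, beside 17.8% of all genes (13.2% higher and 4.58% lower in AGHMT-labelled). Tbx5 alone had an unadjusted p below 0.05 (1 of the 6), beside 5108 of 15059 genes. DESeq2 called 2 (Tbx5 and Tbx18), beside 25.1% of all genes, and limma 1 (Tbx18), beside 32.9%. All 3 AGHMT-labelled libraries lay below all 3 GHMT libraries for Tbx5 (log2 fold change -0.73, 95% interval -1.39 to -0.07, adjusted p = 0.111) and for Tbx18 (-0.68, interval -1.38 to 0.02, adjusted p = 0.157). For Tbx20 the value was -0.44 (interval -1.11 to 0.24, adjusted p = 0.345). The median over the 6 genes was -0.56, beside 0.63 over all genes tested. After a correction for GC content, which brings the median gene to -0.20, 4 of the 6 were called lower in AGHMT-labelled, beside 26.8% of all genes called (1175 higher and 2857 lower): Tbx5 at -2.29 (adjusted p = 5.22e-04), Tbx18 at -1.64 (0.00337), Tbx3 at -1.60 (0.0415) and Tbx20 at -0.80 (0.0177). The mean GC content of a library's reads was 44.7% to 45.3% in AGHMT-labelled, 44.1% to 44.9% in GHMT, 46.6% to 49.9% in CM and 46.0% to 48.5% in E, and its part in these differences was not tested beyond that correction.

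Against adult cardiomyocytes, Tbx5, Tbx18 and Tbx20 were called higher in AGHMT-labelled, beside 48.1% of all genes called (23.7% higher), and the same 3 were called higher in GHMT, beside 58.6% (23.8% higher and 34.7% lower). Tbx18 had the largest of these differences, Tbx20 the next and Tbx5 the smallest in both sorted groups. Cardiomyocytes against E had 2 members called higher, Tbx5 and Tbx20, and 2 called lower, Tbx18 and the sparse Tbx1, beside 42% of all genes called (19.5% higher and 22.5% lower). Without GHMT 1, CM 3 and E 1 the calls of Tbx5, Tbx18 and Tbx20 in all of these comparisons kept their direction and stayed below the threshold, and that of Tbx1 was lost. Comparisons that share a group are not independent of each other.

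Levels of different genes were compared per kilobase of exon. In AGHMT-labelled, Tbx20 stood at 80.0 ± 13.6 CPM per kilobase (SD, n = 3), Tbx18 at 46.3 ± 8.20, Tbx5 at 19.8 ± 5.34 and Tbx3 at 3.26 ± 0.0943. The order was the same in GHMT, with Tbx20 at 109 ± 23.3, Tbx18 at 74.1 ± 5.64, Tbx5 at 32.9 ± 4.79 and Tbx3 at 3.30 ± 0.343 CPM per kilobase, and in both groups each of these 4 genes lay over the next in every library. Tbx20 ranked 267th in AGHMT-labelled and 238th in GHMT among 14982 tested genes with a known length, within the top 2% of genes (1.78% and 1.59%). In CM the order was Tbx20 (11.5 ± 4.39 CPM per kilobase), Tbx5 (4.09 ± 0.428), Tbx3 (2.41 ± 0.520) and Tbx18 (0.997 ± 0.504), and Tbx20 ranked 2040th. In E it was Tbx18 (4.73 ± 1.04), Tbx3 (3.25 ± 0.246), Tbx5 (0.871 ± 0.189), Tbx2 (0.366 ± 0.309), Tbx1 (0.157 ± 0.0368) and Tbx20 (0.0718 ± 0.0152), the last at rank 13851. In CM, Tbx18 and Tbx2 (0.894 ± 1.11 CPM per kilobase) did not differ beyond their spread, nor did Tbx2 and Tbx1 in E.

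The summed level of the 6 genes was 150 ± 18.4 CPM per kilobase in AGHMT-labelled, 219 ± 24.2 in GHMT, 19.9 ± 3.95 in CM and 9.44 ± 0.871 in E (SD, n = 3 each). Tbx20 made up 53.3% of that sum in AGHMT-labelled, 49.1% in GHMT, 56.3% in CM and 0.755% in E, and Tbx18 made up 30.7%, 33.9%, 4.82% and 49.7% in the same order of groups. Both sorted groups thus had a cardiomyocyte's share of Tbx20 next to a share of Tbx18 that lay between those of CM and E. The ratio of Tbx20 to Tbx18 per kilobase was 1.67 to 1.77 in AGHMT-labelled, 1.19 to 1.66 in GHMT, 9.75 to 14.9 in CM and 0.0145 to 0.0160 in E, with GHMT 2 just below the lowest AGHMT-labelled library. Tbx3 made up 2.20% in AGHMT-labelled, 1.52% in GHMT, 12.1% in CM and 34.4% in E. Such a ratio within a library does not depend on how libraries are scaled.

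**Figure D3:**
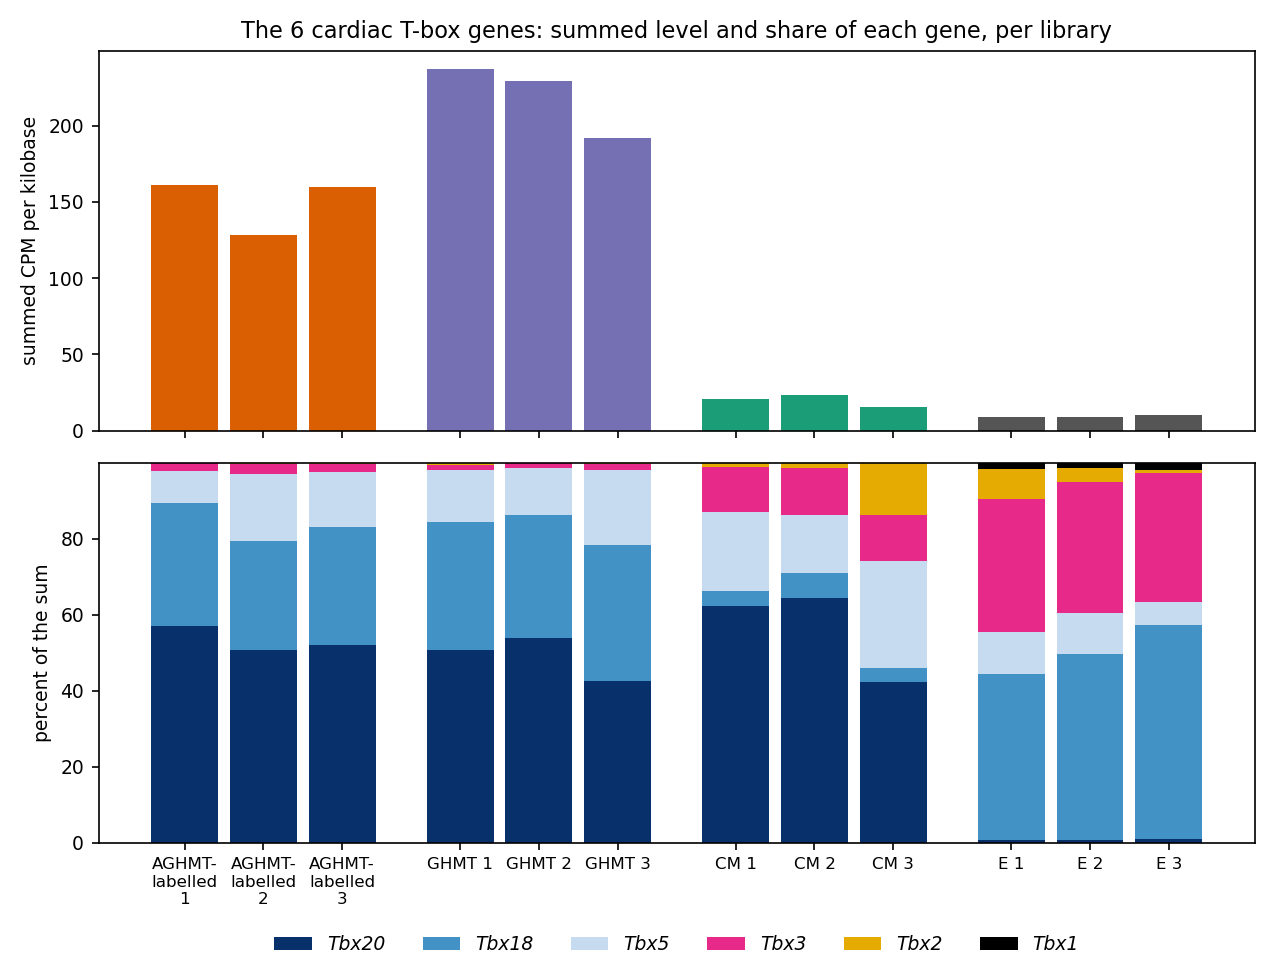
Summed level of the 6 T-box genes in CPM per kilobase (upper panel, bars from 0) and the share of each gene in that sum (lower panel, percent), per library, with AGHMT-labelled, GHMT, CM and E from left to right. Tbx20 and Tbx18 fill most of the sum in the sorted cells, and Tbx18 and Tbx3 most of it in E.

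Among the 11 other T-box genes of the mouse that were listed, 4 passed the filter on low counts: Tbx15, Mga, Eomes and Tbx4. Tbx15, a gene of limb and trunk mesenchyme, stood at 88.0, 69.4 and 71.8 CPM in AGHMT-labelled, at 1363, 308 and 449 CPM in GHMT, at 1.26, 1.61 and 0.687 CPM in CM and at 95.7, 119 and 119 CPM in E. Every GHMT library lay above all others, with GHMT 1 the highest of them. Tbx15 was higher in GHMT than in E (log2 fold change 2.67, adjusted p = 3.58e-04), not called in AGHMT-labelled against E (-0.54, adjusted p = 0.320), and lower in AGHMT-labelled than in GHMT (-3.21, adjusted p = 0.00101). Its spread within GHMT was far wider than within the other groups.

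Eomes, a regulator of early mesoderm, stood at 4.07, 4.68 and 4.14 CPM in AGHMT-labelled (214 reads), at 0, 0 and 1.37 CPM in GHMT (2 reads), at 0, 0.101 and 0 CPM in CM and at 0.401, 0.169 and 0.459 CPM in E (44 reads). It rose in AGHMT-labelled against E (log2 fold change 3.61, adjusted p = 0.00159). The ratio of AGHMT-labelled to GHMT was 8.94 with a counting interval of 2.44 to 74.3, called in the fit (adjusted p = 0.0462) and not called in 13 of 24 alternative settings, where adjusted p ranged from 0.00494 to 0.238 over all 24. Mga, which pairs a T-box with a Max-binding domain, averaged 165 ± 11.7 CPM in AGHMT-labelled, 129 ± 14.9 CPM in GHMT, 67.8 ± 24.2 CPM in CM and 134 ± 42.1 CPM in E (SD, n = 3 each) and was not called in either sorted group against E. Tbx4, the hindlimb and lung gene next in kind to Tbx5, stood at 0.615, 0.330 and 0.164 CPM in AGHMT-labelled (17 reads), at 18.4, 0 and 0 CPM in GHMT (14 reads) and at 4.27, 3.41 and 0.978 CPM in E (388 reads). Every AGHMT-labelled library lay below every E library, and the GHMT reads all came from GHMT 1. The ratio of AGHMT-labelled to E was 0.108 with a counting interval of 0.0623 to 0.175, not called in the fit (log2 fold change -2.98, adjusted p = 0.0595) and called in 9 of 24 alternative settings. In GHMT against E the log2 fold change was 0.83 (adjusted p = 0.585), and without GHMT 1 the GHMT group had no read. The remaining 7 genes (T, Tbr1, Tbx6, Tbx10, Tbx19, Tbx21 and Tbx22) had 28 reads or fewer in any group.

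**Figure D4:**
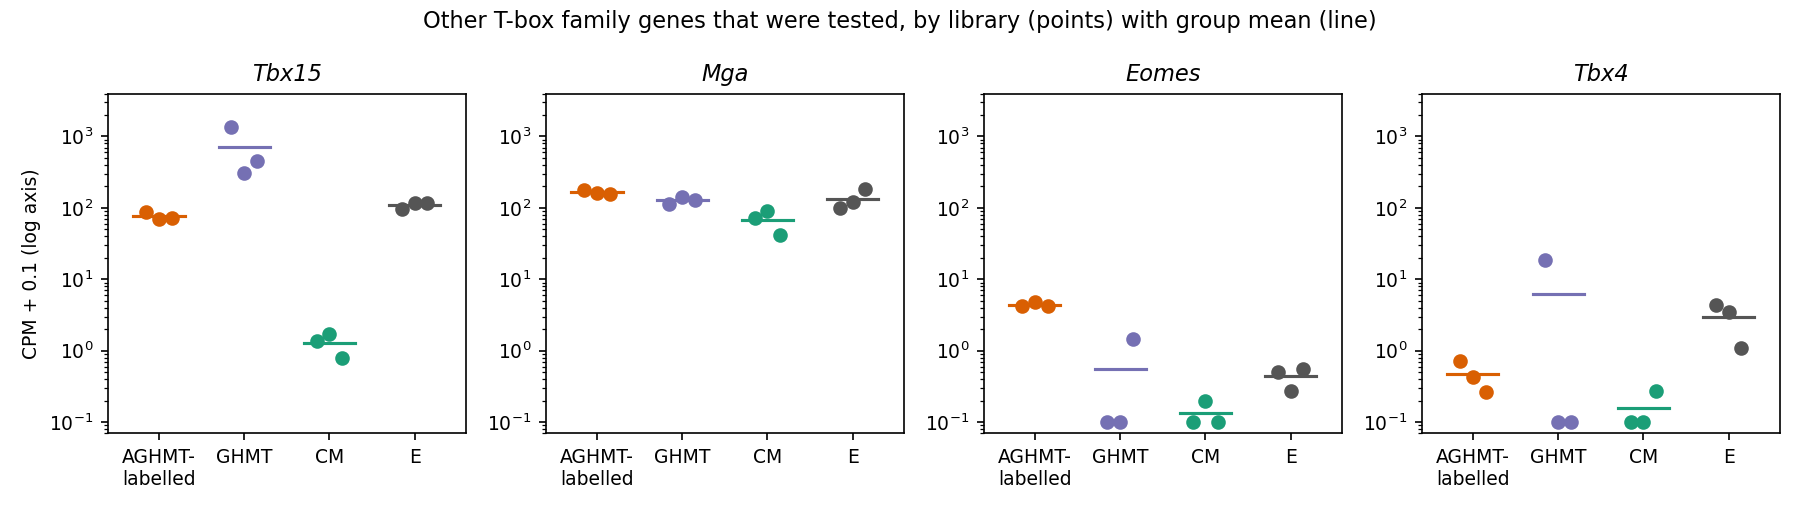
The 4 other T-box genes that were tested, per library, in CPM plus 0.1 on a log axis, with AGHMT-labelled, GHMT, CM and E from left to right, points for libraries and lines for group means. Tbx15 is highest in the 3 GHMT libraries (308 to 1363 CPM), and Tbx4 in GHMT rests on 1 library.

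T-box factors work with partner proteins at cardiac genes, and of 17 listed partners and cofactors 14 were tested. In AGHMT-labelled against E, 6 were called higher and 1 lower, beside 21.9% and 24.6% of all genes. In GHMT against E, 7 were called higher and 2 lower, beside 19.8% and 32.9%. The medians of the list were 1.17 and 1.33, beside -0.16 and -1.06 over all genes. These counts and medians include the forced factors Gata4, Mef2c and Hand2, whose vector and chromosomal reads cannot be divided. Gata4 and Mef2c are among the genes called higher in both groups (Mef2c at 3.46 in AGHMT-labelled and 3.86 in GHMT). Over the alternative settings the higher calls numbered 2 to 8 in AGHMT-labelled and 4 to 10 in GHMT. Gata4 (forced, and a partner of Tbx5 and Tbx20) averaged 9.70 ± 1.95 CPM in AGHMT-labelled, 7.92 ± 6.83 CPM in GHMT, 42.9 ± 23.9 CPM in CM and 0.174 ± 0.152 CPM in E, and was called higher in AGHMT-labelled (log2 fold change 5.69, adjusted p = 1.85e-04) and in GHMT (5.49, adjusted p = 2.43e-04) than in E. With all libraries thinned to the shallowest, both Gata4 calls were lost (2.43, adjusted p = 0.174, in AGHMT-labelled and 2.53, adjusted p = 0.111, in GHMT). Gata6, which was not supplied, rose by 3.19 in AGHMT-labelled (adjusted p = 4.27e-05) and by 4.13 in GHMT (adjusted p = 6.13e-06) on the log2 scale against E. Hand2, also forced, was not called in AGHMT-labelled (1.40, adjusted p = 0.115) or GHMT (1.29, adjusted p = 0.166) against E. Casz1, a zinc finger protein that binds TBX5, rose in AGHMT-labelled (log2 fold change 7.21, adjusted p = 2.40e-04) and in GHMT (6.54, adjusted p = 4.53e-04), and 27 of its 28 GHMT reads came from GHMT 2, without which the GHMT call was lost (2.97, adjusted p = 0.239).

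Nkx2-5, the homeodomain partner of Tbx5 and Tbx20, was all but missing from the sorted cells. Nkx2-5 had 1 read in AGHMT-labelled, none in GHMT and none in E, and stood at 0.446, 1.61 and 19.1 CPM in CM, so that it did not pass the filter. Pooled over the group it was at least 185-fold higher in CM than in E and at least 6.28-fold higher than in GHMT, whose depth limits this bound. CM 3, which stood apart, holds 111 of the 133 CM reads, and without it the bounds were 38.3-fold over E and 1.3-fold over GHMT. Of the co-activators of TBX5, Wwtr1 (TAZ) rose in AGHMT-labelled (log2 fold change 0.94, adjusted p = 0.0130) and GHMT (1.38, adjusted p = 0.00114) against E. With total counts Wwtr1 was no longer called (0.10, adjusted p = 0.851, and 0.01, adjusted p = 0.986), and the calls were lost in 6 and 3 of 25 settings. Yap1 averaged 182 ± 26.3 CPM in AGHMT-labelled, 404 ± 121 CPM in GHMT and 149 ± 28.4 CPM in E. Yap1 was the partner gene called lower in AGHMT-labelled than in GHMT (log2 fold change -1.15, adjusted p = 0.0162, a call lost in 6 of 25 settings), and its difference between GHMT and E (1.44, adjusted p = 0.00108) was -0.01 with total counts. No GHMT library held a read of the co-repressor Tle2, which makes it at least 3.86-fold higher in E, or at least 2.01-fold without E 1, the source of 251 of its 342 reads.

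Most of the listed chamber genes, which T-box activators switch on, were called higher in both sorted groups than in E and lower than in CM. Of 14 tested, 13 were called higher in AGHMT-labelled than in E and 12 in GHMT, with none lower, beside 21.9% and 19.8% of all genes called higher. Myh6, whose promoter drove the sorting reporter, is among those called in both groups, and its rise cannot be told apart from the sort. The medians of the list were 6.55 and 4.79 (6.35 and 4.79 with genes that had no read in a group set to their bound). Over the alternative settings the higher calls numbered 11 to 14 and 10 to 12. Smpx, a small muscle protein and a direct TBX5 target in cell culture, averaged 251 ± 34.9 CPM in AGHMT-labelled, 131 ± 13.2 CPM in GHMT, 487 ± 158 CPM in CM and 0.307 ± 0.212 CPM in E. Its log2 fold change against E was 9.69 in AGHMT-labelled (adjusted p = 8.69e-09) and 8.76 in GHMT (adjusted p = 1.65e-08). Ryr2, the calcium release channel, rose by 9.0 in AGHMT-labelled (adjusted p = 2.33e-08) and by 8.40 in GHMT (adjusted p = 3.89e-08). Nppa, the atrial natriuretic peptide and the classical target of Tbx5 with Nkx2-5, averaged 8.65 ± 3.10 CPM in AGHMT-labelled, 23.1 ± 14.0 CPM in GHMT, 159 ± 37.6 CPM in CM and 0.148 ± 0.0556 CPM in E. Nppb, its neighbour, was not called in AGHMT-labelled (1.47, adjusted p = 0.0901) or GHMT (0.62, adjusted p = 0.585) against E.

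Against cardiomyocytes, 10 of the 14 chamber genes were called lower in AGHMT-labelled and 2 higher (Gja5 and Hey2), beside 24.4% and 23.7% of all genes. In GHMT 11 were called lower and 1 higher (Gja5), beside 34.7% and 23.8%. Gja5 encodes connexin 40 of the atria and conduction system, a Tbx5 target, and averaged 44.0 ± 6.43 CPM in AGHMT-labelled, 32.9 ± 12.3 CPM in GHMT, 11.4 ± 1.05 CPM in CM and 0.350 ± 0.196 CPM in E. Every sorted library thus held more Gja5 than any of the ventricular cells. Between the sorted groups, the chamber genes called included Pln, higher in AGHMT-labelled, and Nppa, lower. Pln, the inhibitor of the calcium pump, stood at 2754, 2206 and 2490 CPM in AGHMT-labelled, at 138, 112 and 179 CPM in GHMT, at 8651, 10605 and 4606 CPM in CM and at 1.44, 1.69 and 5.26 CPM in E. The groups did not overlap, and the log2 fold change of AGHMT-labelled against GHMT was 4.12 ± 0.49 SE (adjusted p = 2.91e-04). The call of Nppa (-1.47, adjusted p = 0.0391) was lost in 15 of 25 settings, with adjusted p of 4.01e-04 to 0.262 over them.

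Genes of the sinus node, where Tbx18 and Tbx3 act, went in both directions. Of 11 tested, 6 were called higher and 3 lower in AGHMT-labelled against E, beside 21.9% and 24.6% of all genes. In GHMT against E, 5 were called higher and 3 lower, beside 19.8% and 32.9%. Called lower in both were Cacna1g (log2 fold changes -3.61 and -4.87, the latter on 1 GHMT read) and Gjc1 (-1.86 and -2.68). Smoc2 was called lower in AGHMT-labelled (-1.12) and Isl1 in GHMT (-2.97, adjusted p = 0.0355, a call lost in 10 of 24 settings). Hcn4, the pacemaker channel, stood at 241, 506 and 572 CPM in AGHMT-labelled, at 2918, 2527 and 1271 CPM in GHMT, at 6.61, 10.3 and 9.45 CPM in CM and at 0.201, 0.169 and 0.0917 CPM in E. The groups did not overlap, and Hcn4 was higher in GHMT than in any other group and lower in AGHMT-labelled than in GHMT (log2 fold change -2.35, adjusted p = 0.00188). Kcnj3 and Kcnj5, which together form the acetylcholine-gated potassium channel of node and atrium, rose by 10.28 and 11.50 in AGHMT-labelled and by 10.35 and 10.58 in GHMT on the log2 scale against E. The ventricular cells of CM had them too, by 10.68 and 10.50 against E, and neither gene was called between a sorted group and CM. Cacna1d, the calcium channel of the node, averaged 3.71 ± 0.878 CPM in AGHMT-labelled and had no read in GHMT, which made it at least 5.10-fold higher in AGHMT-labelled. Isl1, a marker shared by the node and the second heart field, had 54 reads in AGHMT-labelled, 1 in GHMT, 2 in CM and 222 in E, and its ratio of GHMT to E was 0.133 with a counting interval of 0.00335 to 0.748.

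Second heart field and pharyngeal genes, the setting of Tbx1, had 1 gene called higher and 1 lower of 8 tested in AGHMT-labelled against E, beside 21.9% and 24.6% of all genes. In GHMT against E they had 2 higher and 3 lower, beside 19.8% and 32.9% of all genes. Over the alternative settings these counts ranged from 0 to 1 and 0 to 3 in AGHMT-labelled and from 1 to 2 and 0 to 6 in GHMT. Eya1 and Foxc2, without a read in any GHMT library, came out at least 4.50-fold and 4.51-fold higher in E, bounds set by the GHMT depth. Bone morphogenetic protein signals, which switch on Tbx2 and Tbx20 in the embryo, had 4 of 10 genes called higher and 2 lower in AGHMT-labelled against E. In GHMT against E they had 4 higher and 1 lower, beside the same shares of all genes. Bmp2, the ligand of the atrioventricular canal, averaged 17.8 ± 5.02 CPM in AGHMT-labelled, 58.3 ± 25 CPM in GHMT, 1.13 ± 0.286 CPM in CM and 0.187 ± 0.0869 CPM in E, a log2 fold change against E of 6.51 in AGHMT-labelled (adjusted p = 1.18e-06) and of 8.23 in GHMT (adjusted p = 2.58e-07). The receptor genes Bmpr1a and Bmpr2 rose with it in both groups, by 1.57 (adjusted p = 0.00202) and 1.82 (adjusted p = 7.49e-04) in AGHMT-labelled and by 2.61 (adjusted p = 4.62e-05) and 3.38 (adjusted p = 6.13e-06) in GHMT. Another receptor gene, Bmpr1b, was called lower in AGHMT-labelled (-2.89, adjusted p = 0.0193) and not called in GHMT (-1.54, adjusted p = 0.169), where all 31 reads came from 1 library. The ligand Bmp5 was called lower in AGHMT-labelled (-2.19, adjusted p = 0.00839) and in GHMT (-2.93, adjusted p = 0.0236, on 1 read). Bmp2, Bmpr1a and Bmpr2 were the 3 genes of this list called lower in AGHMT-labelled than in GHMT (-1.72, -1.04 and -1.56, with adjusted p of 0.0215, 0.0425 and 0.00730), beside 4.58% of all genes. Of these, Bmp2 lost its call in 9 of 25 settings, Bmpr1a in 12 and Bmpr2 in 3.

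**Figure D5:**
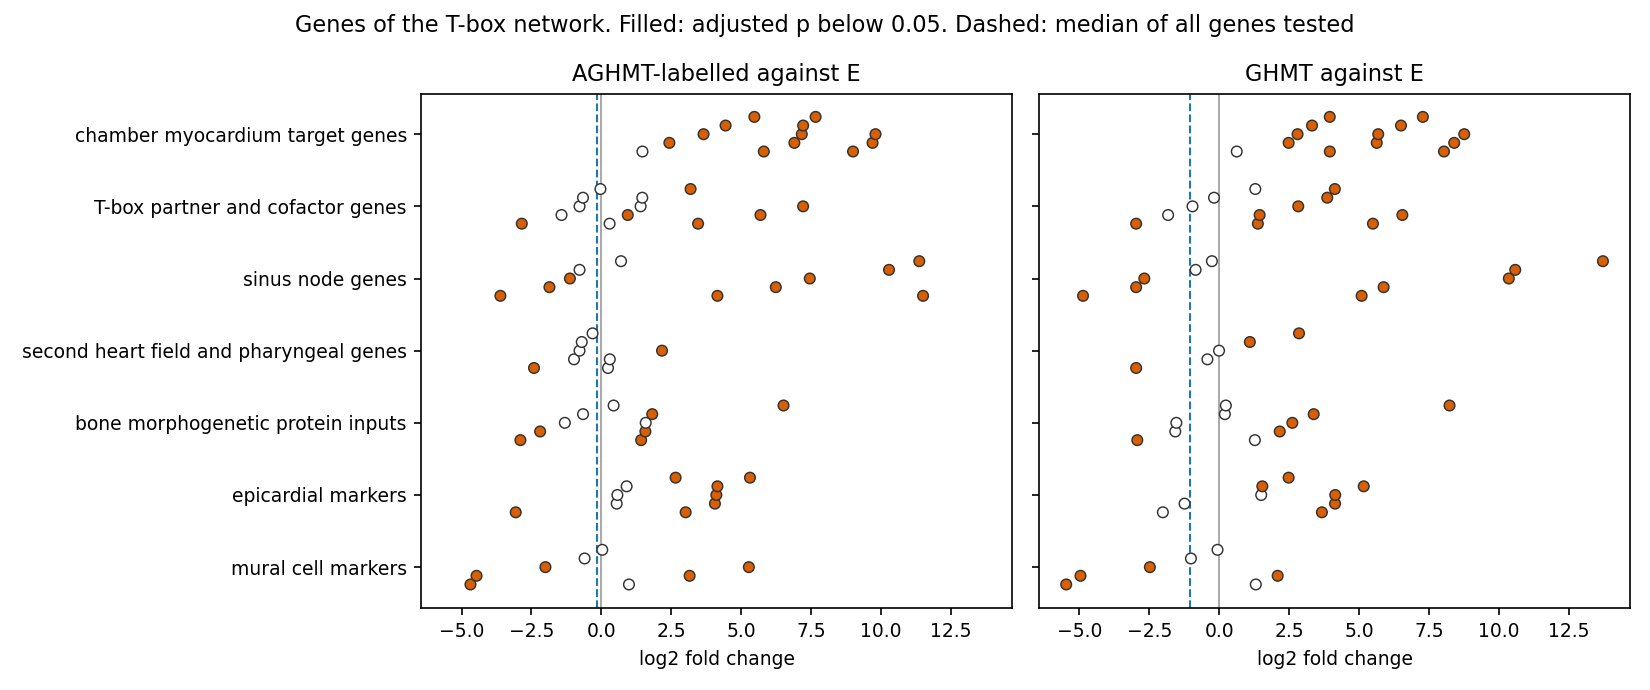
Log2 fold change of each tested gene of 7 lists (rows) in AGHMT-labelled against E (left) and GHMT against E (right), filled where the adjusted p was below 0.05, with a dashed line at the median of all genes tested. Genes without a read in one of the 2 groups are not drawn. Chamber genes lie to the right in both panels, and sinus node genes reach a log2 fold change of 13.71 (Hcn4 in GHMT).

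Tbx18 is also a marker of epicardium and of mural cells, and the levels of other markers of both differed between the groups. Of 10 epicardial markers tested, 6 were called higher and 1 lower in AGHMT-labelled against E, beside 21.9% and 24.6% of all genes. In GHMT against E, 6 were called higher and none lower, beside 19.8% and 32.9%. Over the settings the higher calls numbered 3 to 8 and 4 to 7. Summed over the 11 of 12 markers matched to an identifier, their level was 332 to 375 CPM in AGHMT-labelled, 257 to 350 CPM in GHMT, 59.5 to 66.0 CPM in CM and 23.4 to 33.3 CPM in E. Aldh1a1, a retinoic acid enzyme, averaged 190 ± 22.4 CPM in AGHMT-labelled, 172 ± 4.84 CPM in GHMT, 13.1 ± 4.17 CPM in CM and 4.77 ± 0.473 CPM in E and so held much of those sums, and Wt1, the defining regulator of epicardium, averaged 38.5 ± 3.50 CPM in AGHMT-labelled, 29.0 ± 11.7 CPM in GHMT, 8.79 ± 1.55 CPM in CM and 2.31 ± 0.0885 CPM in E. Wt1 was higher in both sorted groups than in E (log2 fold changes 4.06 and 3.67, adjusted p of 8.93e-06 and 2.06e-05). Krt19 was the marker called lower in AGHMT-labelled than in E (-3.06, adjusted p = 0.0281), and lower calls of this list numbered 0 to 1 over the settings. Tcf21 had 8 reads in AGHMT-labelled and none in GHMT, and Krt19 had none in GHMT either. The part of epicardial-type cells in the level of Tbx18 was not tested.

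Of 8 mural markers, 2 were called higher and 3 lower in AGHMT-labelled against E, beside 21.9% and 24.6% of all genes. In GHMT against E, 1 was called higher and 4 lower, beside 19.8% and 32.9%. The summed level of the mural markers was 367 to 408 CPM in AGHMT-labelled, 36.7 to 95.5 CPM in GHMT, 1440 to 1649 CPM in CM and 97.9 to 334 CPM in E. That sum was highest in CM, where Rgs5, Des (303 ± 407 CPM) and Abcc9 (258 ± 66.8 CPM) held much of it. The part of mural cells in the level of Tbx18 was not tested. Pdgfrb, the defining mural receptor, averaged 5.35 ± 1.88 CPM in AGHMT-labelled, 2.66 ± 0.0788 CPM in GHMT, 32.8 ± 25.8 CPM in CM and 118 ± 82.1 CPM in E, and Notch3 had no read in GHMT. Rgs5, a signalling regulator of pericytes, went the other way in AGHMT-labelled, at 279 ± 21.4 CPM in AGHMT-labelled, 17.0 ± 21.3 CPM in GHMT, 884 ± 379 CPM in CM and 7.22 ± 3.78 CPM in E (log2 fold change against E 5.27, adjusted p = 6.44e-05, in AGHMT-labelled and 1.31, adjusted p = 0.106, in GHMT). Abcc9, a subunit of potassium channels in mural and muscle cells, rose in AGHMT-labelled (3.15, adjusted p = 6.47e-06) and in GHMT (2.09, adjusted p = 1.96e-04) against E. The summed level of 8 endothelial markers was 62.6 to 73.7 CPM in AGHMT-labelled, 2.62 to 12 CPM in GHMT, 485 to 696 CPM in CM and 8.52 to 11.1 CPM in E. That of 8 macrophage markers was 67.2 to 132 CPM in AGHMT-labelled, 2.62 to 7.56 CPM in GHMT, 148 to 203 CPM in CM and 15.9 to 41.3 CPM in E. Egfl7 had no read in GHMT, Vwf none in E, and Cd68, Adgre1, C1qa and C1qb none in GHMT. The part of these cell types in the differences between AGHMT-labelled and GHMT, Tbx5 and Tbx18 included, was not tested.

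Correlations over the 12 libraries mix differences between the 4 groups with the spread within them. Spearman correlations between libraries of a group were 0.984 to 0.986 in AGHMT-labelled and 0.776 to 0.819 in GHMT. The genes whose log2 CPM followed a member most closely over the 12 libraries are given by Pearson's r, with no p. For Tbx5 they were Hcn4 (0.992), Spon1 (0.992), Gm4841 (0.984), Abcg1 (0.983) and F830016B08Rik (0.982). For Tbx18 they were C430049B03Rik (0.995), Lrch2 (0.994), Kcnb2 (0.994), Atp6v1h (0.993) and Plod2 (0.993), and for Tbx20 Dsc2 (0.996), Iigp1 (0.995), Fgl2 (0.994), Gucy1a1 (0.992) and Tmtc1 (0.991). Tbx3 was most like A930004J17Rik (0.958), Nfatc3, Taf1, Kif2a and Srp72, Tbx2 most like Dok4 (0.911), Itpk1, Lama5, Acyp1 and Dot1l, and Tbx1 most like Rexo2 (0.938), Tinag, Spx, Wasf2 and Melk. The closest genes to Tbx1 and Tbx2 rest on few reads.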

How the data were processed

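RNA was sequenced from 12 mouse libraries in 4 labelled groups of 3. TRIzol extraction was followed by a TruSeq stranded library kit, per the labels' protocols. Tools named by the submitters' processing notes are Bowtie2 2.0.6, HTSeq and DESeq, with mm10 as the build. Which annotation was counted, and with which strand setting, is not given in the sources used here. Deposited files hold raw counts per Ensembl gene for each library. A further table deposited by the authors holds normalized signal, the counts divided by 1 size factor per library: whole reads were recovered from 100% of its values (tolerance 0.001), with totals equal to those of the count files. Symbols and positions of 42548 of 43629 identifiers came from GENCODE M21 (GRCm38, the build of mm10).

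Genes kept by filterByExpr (minimum count 10, minimum total 15) numbered 15059. All 12 libraries entered 1 robust fit of edgeR 4.0.16 with TMM scaling (factor of GHMT 1: 0.347), and 6 pairs of groups were compared by its quasi-likelihood test with Benjamini-Hochberg adjustment over all genes and a threshold of 0.05. The fit was tested on simulated data. CPM are on the TMM scale, and the correlations use log2 CPM with a prior count of 2. Genes without reads in a group were set to a floor of 3 counts over that group, and counting intervals (95%) and floors cover counting error only. Pairs of replicates differed beyond counting error (chi-square over its degrees of freedom was 15.0 or more). Alternatives used DESeq2 1.42.0, limma 3.58.1 on log2 of the normalized signal plus 1, other scalings and filters, thinning to 1872558 reads, a replicate block and the omission of each library. The GC correction, the omission of GHMT 1, CM 3 and E 1, edgeR on the recovered reads, and bounds with a library left out were chosen after seeing the data. EdgeR on the recovered reads called 7923 genes in GHMT against E and 6995 in AGHMT-labelled against E. The members, the lists and the rule for names were chosen with earlier results of these data known. The rule named the members, Akt1, the 5 genes most like each member and, per list, the most abundant gene and up to 3 called genes with the largest change in GHMT against E and in AGHMT-labelled against GHMT. Outside it, named after their values were seen, are Tbx4, the 7 T-box genes not tested, Nkx2-5, Gata6, Mef2c, Hand2, Wwtr1, Gja5, Hey2, Nppb, Cacna1g, Gjc1, Bmpr1b, Wt1, Tcf21, Krt19, Des, Egfl7, Vwf, C1qa and C1qb. A gene that the rule names is not reported here.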

Additional observations from a re-analysis of the deposited data

How the results depend on the processing

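Of 882 values (6 genes, 6 comparisons, up to 25 alternatives), 854 kept their side of the threshold, 8 lost a call, 16 gained one and 4 reversed. Of the 854, 77 had the opposite sign, all of them values not called in either setting (mostly Tbx3 and Tbx2). The number of the 6 genes called became 5 in GHMT against E, 4 in AGHMT-labelled against GHMT, 5 in GHMT against CM and 5 in AGHMT-labelled against CM after GC correction. For AGHMT-labelled against GHMT it was 0 at first, 1 with DESeq2 size factors in edgeR, 2 with DESeq2 and 1 with limma. When 1 library was left out at a time, it ranged from 3 to 3 in GHMT against E, 3 to 4 in AGHMT-labelled against E, 0 to 0 in AGHMT-labelled against GHMT, 3 to 3 in GHMT against CM, 3 to 3 in AGHMT-labelled against CM and 3 to 4 in CM against E.

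Reversals were Tbx3 in GHMT against E (-1.42 with total counts), Tbx3 in AGHMT-labelled against E (-0.33 with DESeq2), Tbx2 in GHMT against CM (2.98) and AGHMT-labelled against CM (1.92) after GC correction, Yap1 in GHMT against E (-0.0102 with total counts), Tbx4 in GHMT against E (-8.74 without GHMT 1, a fitted value for a group without reads, from -8.74 to 1.55 over the libraries left out, and -8.09 with GHMT 1, CM 3 and E 1 left out) and Notch3 in AGHMT-labelled against E (1.45 after GC correction). The causes were not tested. Tbx1 in CM against E lost its call in 7 of 23 alternatives (adjusted p up to 0.188).

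Replicate numbers pair nothing here: deviations of libraries with the same number correlated between -0.719 and 0.130. With the replicate number as a block, 3 of the 6 genes were called in GHMT against E, 3 in AGHMT-labelled against E and 0 in AGHMT-labelled against GHMT, as without it. The depth of GHMT limits what can be said of Tbx1, Tbx2, Tbx4, Eomes and genes without reads there.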
